A study of Mus musculus with 12 samples.

Results

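The genes described here encode the liver's conjugating enzymes of 2 superfamilies, the UDP-glucuronosyltransferases of families 1 and 2 (Ugt1a, Ugt2a, Ugt2b) and the cytosolic sulfotransferases (Sult1 to Sult5). They were chosen by a rule on gene symbols that used no measured value, though earlier results of these data were known. Pseudogenes were left out. Of 50600 genes counted in every mouse liver library, 38 met that rule, 19 in each superfamily. They comprised 9 Ugt1a genes, 10 Ugt2 genes, 6 Sult1 genes, 9 Sult2 genes and 4 genes of families Sult3 to Sult5.

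UDP-glucuronosyltransferases sit in the membrane of the endoplasmic reticulum and transfer glucuronic acid from UDP-glucuronic acid to bilirubin, steroids, bile acids and drugs, which makes them water-soluble and ready for export. Cytosolic sulfotransferases move a sulfonate group from the donor PAPS to phenols, hydroxysteroids, bile acids and amines. In mouse liver, several genes of both superfamilies are known to differ between the sexes under the pattern of growth hormone release.

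The study asked what an epigenome editor does to liver RNA when it is directed at Pdx1, a pancreatic transcription factor gene that liver normally keeps silent. All animals carried dCas9-p300, a nuclease-dead Cas9 joined to a histone acetyltransferase, at the Rosa26 locus behind a stop cassette that Cre removes (Rosa26-LSL-dCas9-p300); the source of Cre and the sex of the animals are not given in the sources used here. At about 8 weeks of age they received by tail vein an adeno-associated virus (AAV.Cbh.gRNA) carrying a Pdx1 gRNA (4 libraries, 1e+12 viral genomes per mouse), the same virus with a control gRNA (4 libraries, 1e+12), or PBS (4 libraries, no virus), and livers were taken 2 weeks later. The labels do not say that each library is a separate animal, so the p-values cover only the spread from library to library, which may be technical.

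Libraries held 11824767 to 22008046 counts assigned to genes, and the transferase genes took 0.309 to 0.386% of them in Pdx1 gRNA livers, 0.287 to 0.386% in control gRNA livers and 0.271 to 0.499% in PBS livers. Pdx1 itself had 26, 32, 54 and 256 counts in the Pdx1 gRNA libraries, against 0, 0, 0 and 2 in the control gRNA libraries, and was at 0 in PBS libraries (exact two-sided permutation p = 0.0286 over 70 assignments, the smallest this design allows). PBS libraries 2 and 3 stood apart from the other 10. They had 2.61 and 3.64 CPM (counts scaled to a common library size, here by total counts) of Xist and 80.8 and 70.0 CPM of the Y-linked gene Ddx3y, whereas in the other 10 libraries Xist ran from 692 to 1347 CPM and Ddx3y did not exceed 0.187 CPM. This is a male pattern in PBS libraries 2 and 3 and a female pattern in the other 10, all virus libraries among them. Over all 12 libraries, differences between virus and PBS livers are thus mixed with differences by sex, and these cannot be told apart. Because of this, comparisons with PBS livers are also given without PBS libraries 2 and 3. CPM below are on library sizes scaled by TMM, a factor that aligns the bulk of genes between libraries. A gene was called when edgeR's quasi-likelihood test gave a Benjamini-Hochberg adjusted p under 0.05 over all genes tested, and only called genes are said to have risen or fallen. Fold changes are on the log2 scale with an SE, taken as their size over the square root of edgeR's F statistic. Means carry the SD over 4 libraries.

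The Ugt1a genes sit in 1 array on chromosome 1 (88055388 to 88220002, plus strand, GRCm38), in which each gene has its own first exon and all 9 run into the same last exons. Between 17.3 and 49.7% of a Ugt1a gene's exon bases lay in no other gene's exons, and for Ugt1a1, the bilirubin-conjugating enzyme, that was 385 of 2224 bases. The deposited counts leave out fragments that overlap several genes, so a Ugt1a count reflects mainly the gene's own first exon and understates the transcript. The Ugt2 genes lie together on chromosome 5 and had exons of their own, except Ugt2a1 and Ugt2a2, with 1.17 and 5.51% of their exon bases unshared. Near-identical sequence is a second limit on counting. Of all 50-base stretches of the Ugt2b5 transcripts 41.7% also occurred in another gene's transcripts, and the share was 37.4% for Ugt2b38, 62.1% for Sult2a2 and 33.2% for Sult2a1, so levels of these copies are uncertain. It was 1.96% for Sult2a8, 1.44% for Ugt2b34, 0.303% for Ugt2b35 and 0 for Ugt2b1.

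**Figure D1:**
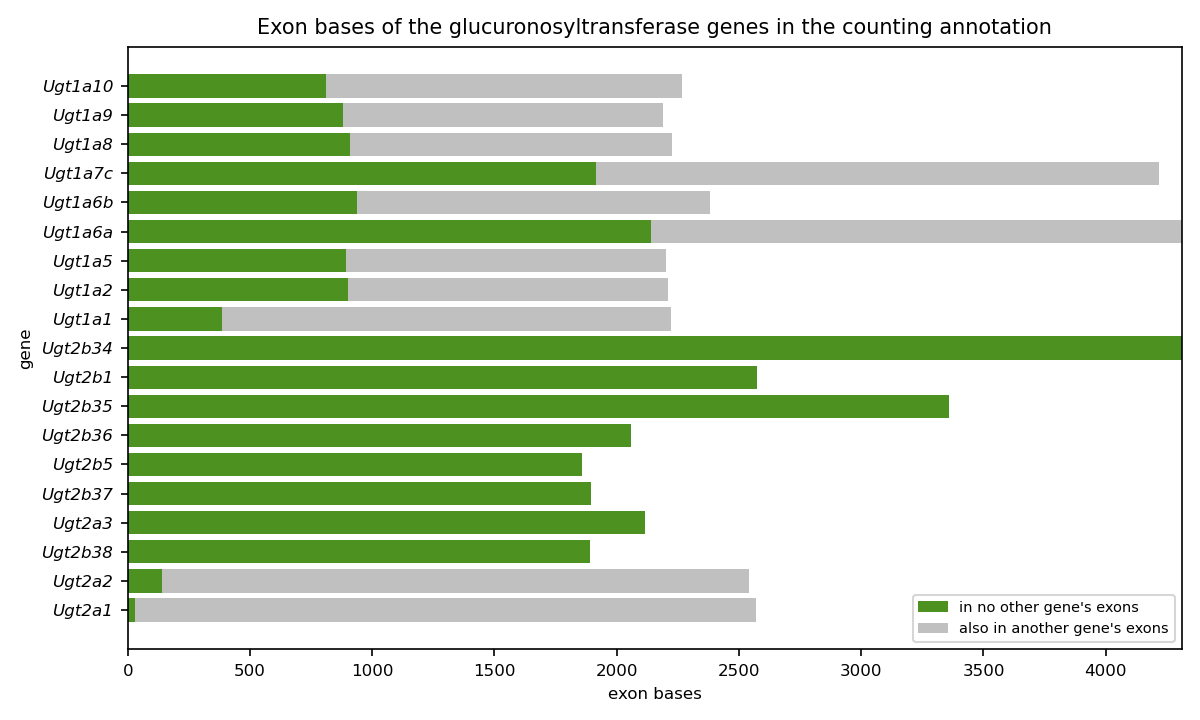
Exon bases of the 19 Ugt genes (horizontal axis) in the annotation used for counting, split into bases that lie in no other gene's exons (green) and bases shared with another gene (grey). Every Ugt1a gene has more shared than unshared bases, down to 385 unshared bases for Ugt1a1, and the Ugt2b genes have no shared bases.

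Set per kilobase of exon, Ugt2b5 was the most abundant of the 38 genes in each group, with 346 ± 52.2 CPM per kb in Pdx1 gRNA livers, 288 ± 95.8 in control gRNA livers and 438 ± 183 in PBS livers (SD, n = 4 each). Sult1a1, a phenol sulfotransferase, had 248 ± 102 CPM per kb in Pdx1 gRNA livers, 257 ± 64.3 in control gRNA livers and 222 ± 96.2 in PBS livers. Ugt2b36 completed the top group, with 223 ± 74.1, 186 ± 64.2 and 315 ± 87.9 CPM per kb in Pdx1 gRNA, control gRNA and PBS livers. Sult1a1 came second in the virus groups and Ugt2b36 in PBS livers, and the ranges of neighbours in that order overlapped in every group. Ugt1a1 depended on the length used. Per kilobase of its whole exon length it had 30.6 ± 8.9 CPM in Pdx1 gRNA livers, 20.9 ± 6.3 in control gRNA livers and 54.2 ± 24.1 in PBS livers. Per kilobase of its unshared bases it had 177 ± 51.5, 121 ± 36.6 and 313 ± 139, which moved it from rank 12 to rank 4 in Pdx1 gRNA livers, from rank 12 to rank 6 in control gRNA livers and from rank 10 to rank 3 in PBS livers.

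Summed over each family, Ugt1a counts came to 137 to 211 CPM in Pdx1 gRNA livers, 90.9 to 207 CPM in control gRNA livers and 146 to 486 CPM in PBS livers. The Ugt2 family made up most of the total, with 2243 to 2779 CPM in Pdx1 gRNA livers, 1756 to 2605 CPM in control gRNA livers and 1714 to 4285 CPM in PBS livers. Sult1 genes summed to 293 to 716 CPM, 407 to 627 CPM and 322 to 743 CPM in the same order of groups. Sult2 genes summed to 99.5 to 378 CPM in Pdx1 gRNA livers, 99.3 to 382 CPM in control gRNA livers and 326 to 972 CPM in PBS livers, and the families Sult3 to Sult5 to 4.1 to 46.8 CPM, 1.2 to 33.4 CPM and 20.7 to 209 CPM. The 3 groups overlapped in every family. The 2 highest Ugt2 and Sult2 sums were those of PBS libraries 2 and 3.

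**Figure D2:**
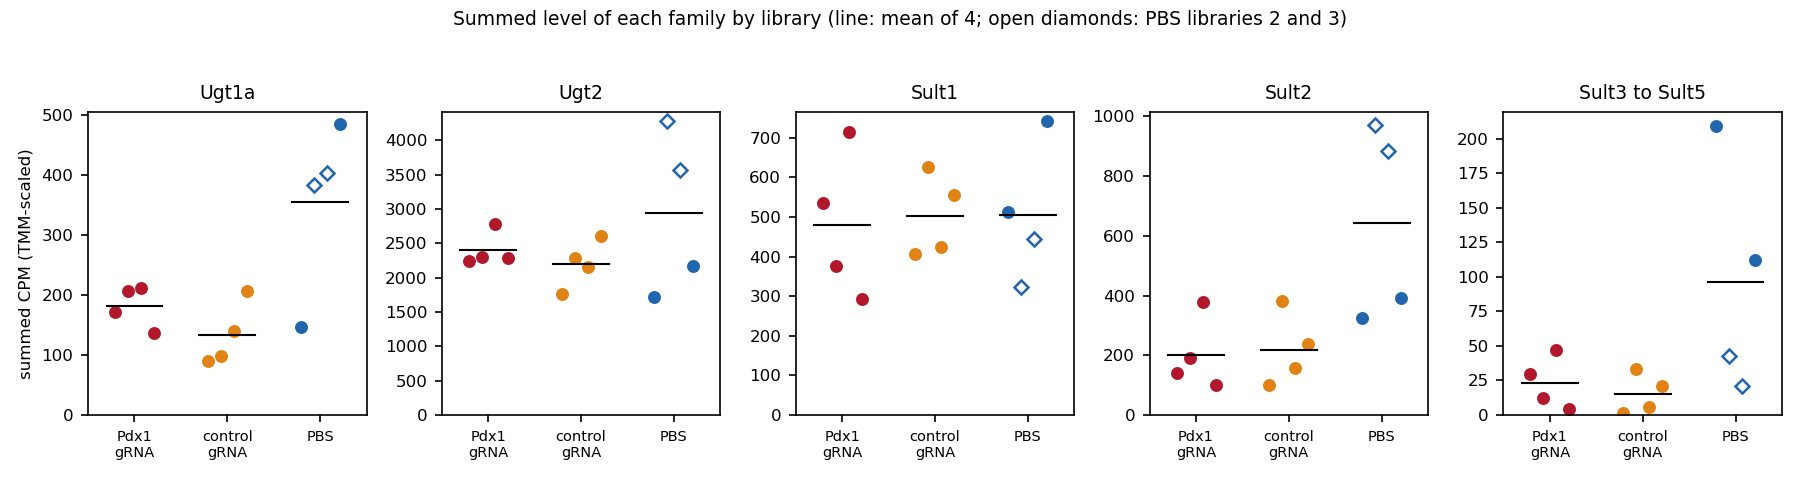
Summed TMM-scaled CPM of each family (vertical axes, from 0) in each of the 12 libraries, with Pdx1 gRNA, control gRNA and PBS livers from left to right, the mean as a line and PBS libraries 2 and 3 as open diamonds. The Ugt2 and Sult2 sums of the diamonds lie above all other libraries (Ugt2 at 4285 and 3569 CPM), and the 3 groups overlap in every family.

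The promoters of some genes described below are shown because they differ within the Ugt1a array and between the families. Ugt1a9 among them was not called below, and several called genes are not shown. Each line gives the 250 bases before the RefSeq start site (GRCm38.p6), 5′ to 3′ on the gene's strand. Capitals mark either GTTAAT or its reverse complement, a half-site of the hepatocyte factor HNF1, or GCGTG on either strand, the core that the aryl hydrocarbon receptor binds in its response element. The windows are chr1:88211709-88211958 (plus strand) for Ugt1a1, chr1:88070529-88070778 (plus) for Ugt1a9, chr1:88165762-88166011 (plus) for Ugt1a5, chr5:87337196-87337445 (minus) for Ugt2a3, chr5:86906938-86907187 (minus) for Ugt2b34, chr5:87000610-87000859 (plus) for Ugt2b35 and chr7:14446588-14446837 (minus) for Sult2a8, whose RefSeq start lies 182 bases inside the gene as counted.
Ugt1a1: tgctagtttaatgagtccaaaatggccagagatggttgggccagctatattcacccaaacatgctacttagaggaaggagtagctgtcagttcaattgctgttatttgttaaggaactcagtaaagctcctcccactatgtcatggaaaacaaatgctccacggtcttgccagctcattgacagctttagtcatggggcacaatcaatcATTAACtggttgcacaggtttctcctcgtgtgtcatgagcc
Ugt1a9: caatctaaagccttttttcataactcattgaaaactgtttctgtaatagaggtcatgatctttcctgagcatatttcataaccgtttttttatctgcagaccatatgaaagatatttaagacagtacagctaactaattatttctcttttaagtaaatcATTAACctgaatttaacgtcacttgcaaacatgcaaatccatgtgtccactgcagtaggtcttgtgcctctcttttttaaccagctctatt
Ugt1a5: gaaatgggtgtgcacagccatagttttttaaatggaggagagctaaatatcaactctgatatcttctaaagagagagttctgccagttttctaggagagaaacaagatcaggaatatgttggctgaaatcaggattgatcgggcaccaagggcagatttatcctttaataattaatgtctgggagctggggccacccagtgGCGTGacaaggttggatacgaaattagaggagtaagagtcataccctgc
Ugt2a3: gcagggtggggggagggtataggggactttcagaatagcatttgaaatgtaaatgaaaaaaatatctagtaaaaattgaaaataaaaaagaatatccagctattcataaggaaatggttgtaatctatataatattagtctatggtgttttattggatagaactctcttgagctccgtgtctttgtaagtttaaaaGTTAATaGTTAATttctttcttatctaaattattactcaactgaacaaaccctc
Ugt2b34: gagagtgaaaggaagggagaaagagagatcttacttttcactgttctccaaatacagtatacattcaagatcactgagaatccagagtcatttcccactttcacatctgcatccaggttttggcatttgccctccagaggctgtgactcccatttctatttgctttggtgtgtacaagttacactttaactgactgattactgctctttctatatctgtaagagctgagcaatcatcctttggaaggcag
Ugt2b35: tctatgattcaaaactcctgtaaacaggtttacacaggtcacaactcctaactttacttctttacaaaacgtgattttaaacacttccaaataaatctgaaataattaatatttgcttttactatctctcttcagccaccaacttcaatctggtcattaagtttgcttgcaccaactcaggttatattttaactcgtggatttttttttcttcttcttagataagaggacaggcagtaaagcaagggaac
Sult2a8: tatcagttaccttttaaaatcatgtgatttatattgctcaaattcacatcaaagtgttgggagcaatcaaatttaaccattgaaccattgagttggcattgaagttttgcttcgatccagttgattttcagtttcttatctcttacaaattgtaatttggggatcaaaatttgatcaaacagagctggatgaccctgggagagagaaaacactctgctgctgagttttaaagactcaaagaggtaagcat
Of the 38 genes, 33 had a promoter entry. GTTAAT or its complement occurred in 12 of them and in 6.43% of all 32851 promoter windows of the same length. In Ugt1a1 it lay 41 bases before the start, in Ugt1a9 91 bases, and Ugt2a3 held it at both 54 and 47 bases. GCGTG occurred in 3 of the 33, among them Ugt1a5 at 49 bases, and in 28.2% of all windows. TTCNNNGAA, the spacing that STAT5 binds, occurred in 2 (Ugt1a6a and Sult3a1) and in 7.02% of all windows. None of these motifs was found in the windows of Ugt2b34, Ugt2b35 and Sult2a8. Several of these genes are copies of one another, so the matches are not independent.

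Some transferase genes fell in virus livers against PBS livers, and none rose in the main fit over all 12 libraries. That fit takes no account of the male pattern in PBS libraries 2 and 3. With a covariate for them, also over all 12 libraries, 2 rose and 3 fell in control gRNA livers. In Pdx1 gRNA livers 2 rose and 0 fell with it. The numbers that follow are from the main fit. Of the 38 genes 25 had enough counts to be tested. In control gRNA livers against PBS livers 8 of the 25 fell, where 15.8% of all 15219 genes tested were called lower, and 0 rose, where 16.3% were called higher. The 8 were Ugt1a1, Ugt1a5, Ugt1a6b, Ugt2a3, Ugt2b1, Sult1b1, Sult2a8 and Sult3a1. In Pdx1 gRNA livers against PBS livers 3 of the 25 fell (Ugt1a6b, Ugt2a3 and Sult1d1), where 10.4% of all genes were called lower, and 0 rose, where 11.7% were called higher. The 3 falls are 12% of the 25 and thus near the share of all genes. At an unadjusted p under 0.05 the numbers were 11 and 7, in either direction. The share of all genes at that unadjusted threshold was not counted. The median log2 fold change of the 25 was -0.65 in control gRNA against PBS livers and -0.49 in Pdx1 gRNA against PBS livers, against medians of -0.01 and -0.06 over all genes tested. Both comparisons use the same PBS libraries.

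Most of these calls were not kept without PBS libraries 2 and 3, a fit that also has fewer PBS libraries. A call can be lost there with or without a loss of the fold change. In control gRNA against PBS livers, Ugt1a1 went from -1.37 to -1.33 on the log2 scale and Ugt2b1 from -1.46 to -0.30, and neither was called. Without PBS libraries 2 and 3, 29 of the 38 genes were tested. In control gRNA livers against the remaining PBS livers 4 fell (Ugt1a5, Ugt2a3, Sult3a1 and Sult3a2), where 7.05% of 16170 genes were called lower, and 2 rose (Ugt2b34 and Ugt2b35), where 6.91% were called higher. In Pdx1 gRNA livers 1 rose (Ugt2b35), where 4.5% of genes were called higher, and 0 fell, where 3.4% were called lower. At an unadjusted p under 0.05 there were 11 in the first comparison and 8 in the second, in either direction. For these, too, the share of all genes was not counted. Counts of 0 to 4 among 29 genes are too small to set the transferases apart from all genes tested. Single libraries also mattered. The 8 falls in control gRNA livers became 5 without PBS library 4, control gRNA library 1 or control gRNA library 3. They became 12 without Pdx1 gRNA library 4 and 10 without PBS library 1. The 3 falls in Pdx1 gRNA livers became 7 without PBS library 1, 6 without control gRNA library 1, and 1 without PBS library 3 or Pdx1 gRNA library 2 or 4. Each of these counts came from edgeR's test on the libraries left.

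**Figure D3:**
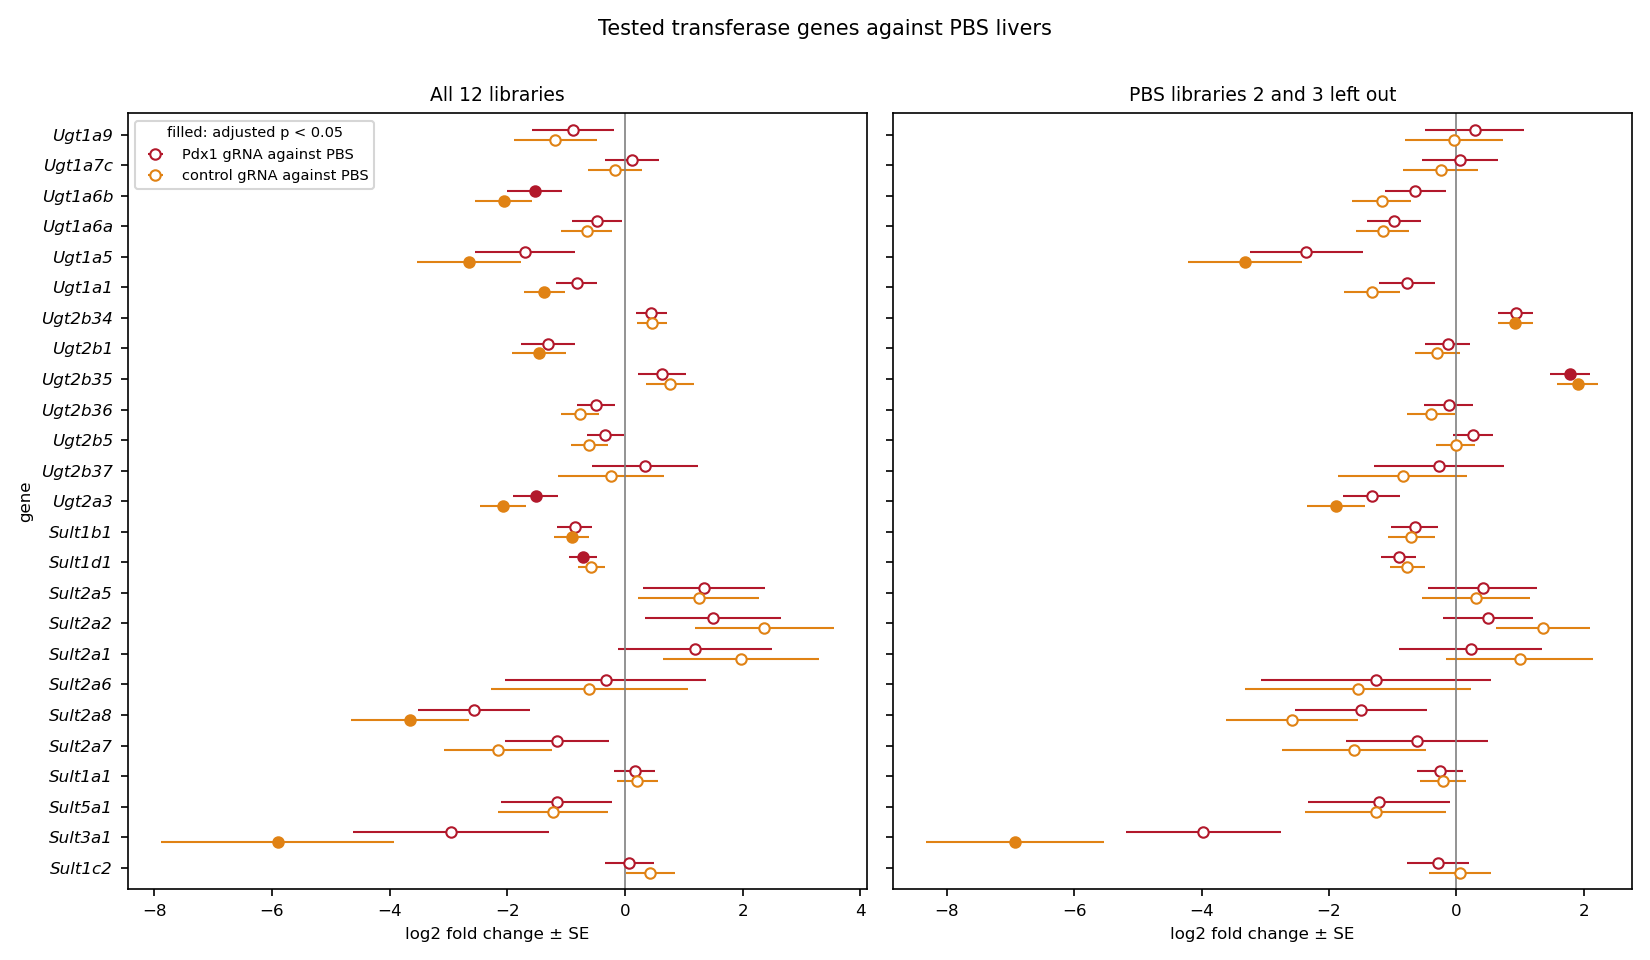
Log2 fold change ± SE (horizontal axis) of the 25 tested genes in Pdx1 gRNA (red) and control gRNA livers (orange) against PBS livers, with all 12 libraries (left) and without PBS libraries 2 and 3 (right); filled points had an adjusted p under 0.05. On the left 8 orange and 3 red points are filled, all below 0; on the right Ugt2b35 is filled above 0 for both, at 1.78 and 1.91.

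Ugt1a1, which conjugates bilirubin, had 63.4, 84.8, 82.3 and 42.1 CPM in Pdx1 gRNA livers, 40.6, 31.8, 49 and 64.9 CPM in control gRNA livers, and 49.4, 125, 128 and 180 CPM in PBS livers. The groups overlapped, since PBS library 1 lay among the virus libraries and the other 3 PBS libraries lay above all of them. It fell in control gRNA against PBS livers by 1.37 ± 0.35 on the log2 scale (edgeR adjusted p = 0.0109), was called without each single library, and had -1.33 ± 0.44 with an adjusted p of 0.0648 without PBS libraries 2 and 3. In Pdx1 gRNA against PBS livers its log2 fold change was -0.82 ± 0.35 (edgeR adjusted p = 0.106), and -0.77 ± 0.44 without PBS libraries 2 and 3 (adjusted p = 0.270). Without PBS library 1 it was -1.08 and called (adjusted p = 0.00989).

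Ugt1a6b belongs with Ugt1a6a to the pair of genes for the phenol-conjugating form UGT1A6. It had 12.7, 14.4, 11.6 and 10.4 CPM in Pdx1 gRNA livers, 8.13, 5.69, 9.85 and 10.5 CPM in control gRNA livers, and 6.17, 59.7, 45.9 and 31.8 CPM in PBS livers. PBS library 1 was again among the virus libraries, and the other 3 PBS libraries were above every virus library. It fell by 2.06 ± 0.48 in control gRNA and by 1.54 ± 0.47 in Pdx1 gRNA against PBS livers (edgeR adjusted p = 0.00715 and 0.0354). Over the 12 fits that each left out 1 library the first call held in 12 and the second in 5, and neither held without PBS libraries 2 and 3 (adjusted p = 0.109 and 0.389). Ugt1a6a, with which it shares 79.6% of its 50-base stretches, had 11.4 to 34.7 CPM in Pdx1 gRNA livers, 14.1 to 27.2 CPM in control gRNA livers and 14.5 to 66.7 CPM in PBS livers and was not called in either comparison, with or without those 2 libraries.

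Ugt1a5 differed mostly through 1 library. It had 22.1, 17.6, 24.1 and 4.98 CPM in Pdx1 gRNA livers, 4.1, 4.7, 6.41 and 20.3 CPM in control gRNA livers, and 12.6, 15.3, 34.5 and 160 CPM in PBS livers. It fell by 2.65 ± 0.88 in control gRNA against PBS livers (edgeR adjusted p = 0.0398), but without PBS library 4 the log2 fold change was -1.23 and the adjusted p 0.164, and it was called in 4 of the 12 fits that left out 1 library. It was -3.46 without control gRNA library 4, and -3.32 ± 0.90 and called without PBS libraries 2 and 3 (adjusted p = 0.0367). Ugt1a9, which had the second highest counts of the array, had 45.4 to 65.5 CPM in Pdx1 gRNA livers, 17.3 to 83.4 CPM in control gRNA livers and 7.97 to 167 CPM in PBS livers. Its PBS libraries spanned the whole range of the virus libraries, and it was not called (log2 fold change -1.19 ± 0.70 in control gRNA and -0.88 ± 0.70 in Pdx1 gRNA against PBS livers). Without PBS libraries 2 and 3 these were -0.03 ± 0.77 and 0.28 ± 0.78, also not called. Ugt1a7c had 0.887 to 3.76 CPM over all 12 libraries and was not called, with or without PBS libraries 2 and 3.

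Ugt2a3, a glucuronosyltransferase known in human liver for bile acids, was the gene whose fall was called in the most settings. It had 134, 103, 158 and 49.1 CPM in Pdx1 gRNA livers, 37.8, 96.9, 65.1 and 103 CPM in control gRNA livers, and 194, 378, 348 and 358 CPM in PBS livers. Every virus library was below every PBS library. The mean was 111 ± 47.2 CPM in Pdx1 gRNA livers, 75.8 ± 30.4 CPM in control gRNA livers and 319 ± 84.5 CPM in PBS livers (SD, n = 4 each). It fell 4.21-fold in control gRNA against PBS livers (log2 -2.08 ± 0.38, edgeR adjusted p = 0.00217) and 2.87-fold in Pdx1 gRNA against PBS livers (log2 -1.52 ± 0.38, adjusted p = 0.0137). The first call held in all 23 alternative settings, with -1.89 ± 0.45 and an adjusted p of 0.0233 without PBS libraries 2 and 3, and the second in 21 of 23, with -1.33 ± 0.45 and 0.0899 without them.

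Ugt2b1 is 1 of the neighbouring Ugt2b genes of chromosome 5. It had 191, 168, 229 and 118 CPM in Pdx1 gRNA livers, 80.4, 164, 161 and 229 CPM in control gRNA livers, and 185, 822, 539 and 199 CPM in PBS livers. PBS libraries 2 and 3 were high and PBS libraries 1 and 4 lay among the virus libraries. It fell by 1.46 ± 0.46 in control gRNA against PBS livers (edgeR adjusted p = 0.0283), a call that 7 of the 12 fits without 1 library kept, and without PBS libraries 2 and 3 the log2 fold change was -0.30 ± 0.35 (adjusted p = 0.585). The abundant Ugt2b5 and Ugt2b36 had the same 2 PBS libraries highest. Ugt2b5 had 545 to 754 CPM in Pdx1 gRNA livers, 311 to 715 CPM in control gRNA livers, and 510, 1207, 987 and 551 CPM in PBS livers. Ugt2b36 had 242 to 595 CPM, 209 to 499 CPM, and 473, 841, 762 and 517 CPM in the same order of groups. Neither was called in either comparison, with or without PBS libraries 2 and 3.

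Ugt2b34 and Ugt2b35 went the other way. Ugt2b34 had 576, 570, 699 and 843 CPM in Pdx1 gRNA livers, 716, 596, 701 and 694 CPM in control gRNA livers, and 266, 628, 645 and 435 CPM in PBS livers. PBS libraries 2 and 3 were within the range of the virus libraries, and PBS libraries 1 and 4 were below it. Ugt2b35 showed the same order, with 239, 271, 339 and 490 CPM in Pdx1 gRNA livers, 401, 317, 393 and 362 CPM in control gRNA livers, and 80.8, 389, 286 and 112 CPM in PBS livers. In the main fit over all 12 libraries neither was called (Ugt2b34 0.46 ± 0.26 in control gRNA and 0.45 ± 0.26 in Pdx1 gRNA against PBS livers; Ugt2b35 0.76 ± 0.41 and 0.63 ± 0.41). Against PBS libraries 1 and 4 alone Ugt2b35 rose by 1.91 ± 0.32 in control gRNA livers and by 1.78 ± 0.32 in Pdx1 gRNA livers (edgeR adjusted p = 0.00751 and 0.0126). Ugt2b34 rose by 0.92 ± 0.27 in control gRNA livers (adjusted p = 0.0472) and had 0.93 ± 0.27 in Pdx1 gRNA livers (adjusted p = 0.0598). These rises rest on 2 PBS libraries.

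**Figure D4:**
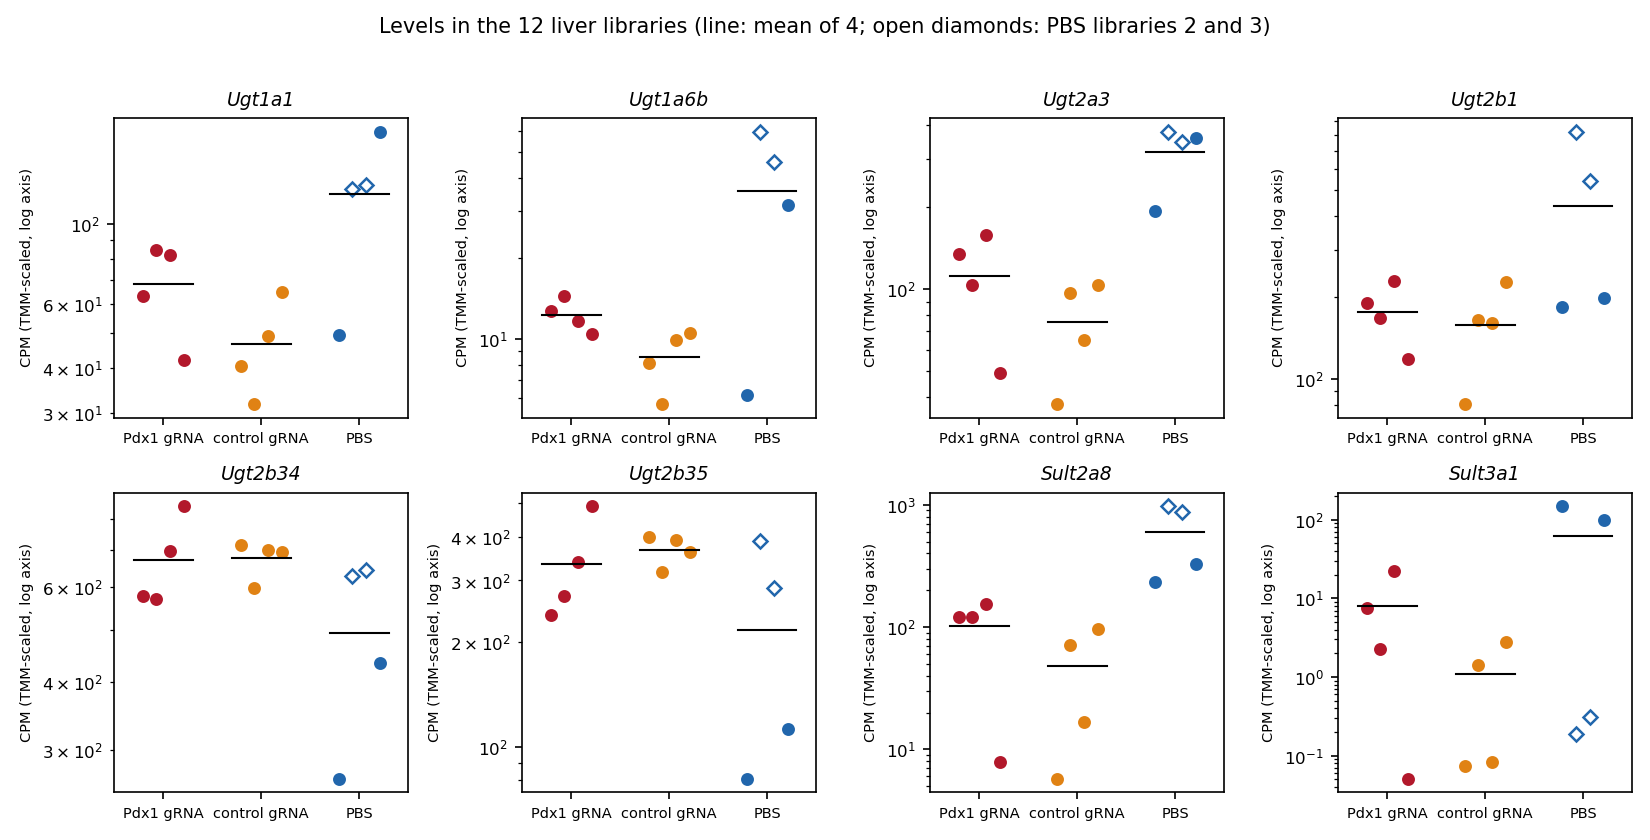
TMM-scaled CPM (logarithmic vertical axes) of 8 genes in each library, with Pdx1 gRNA, control gRNA and PBS livers from left to right, group means as lines and PBS libraries 2 and 3 as open diamonds. Every virus library lies below every PBS library for Ugt2a3 and Sult2a8; for Ugt2b34 and Ugt2b35 the 2 PBS circles (266 and 435 CPM, 80.8 and 112 CPM) lie below every virus library and the diamonds among them.

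Sult2a8, a sulfotransferase known in mouse liver for bile acids, was low and uneven in virus livers. It had 121, 122, 155 and 7.82 CPM in Pdx1 gRNA livers, 5.75, 71.2, 16.8 and 97.3 CPM in control gRNA livers, and 234, 970, 880 and 327 CPM in PBS livers. Every virus library was below every PBS library. It fell 12.6-fold in control gRNA against PBS livers (log2 -3.66 ± 1.00, edgeR adjusted p = 0.0169), was called without each single library, and had -2.58 ± 1.04 with an adjusted p of 0.115 without PBS libraries 2 and 3. Without control gRNA library 4 the log2 fold change was -4.27. In Pdx1 gRNA against PBS livers the log2 fold change was -2.57 ± 0.95 (adjusted p = 0.0742), and -1.50 ± 1.03 without PBS libraries 2 and 3 (adjusted p = 0.364). The gene was called in these livers without control gRNA library 1 (-2.60, adjusted p = 0.0470).

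Sult3a1 encodes a sulfotransferase that acts on amines. It had 7.56, 2.28, 22.4 and 0.0508 CPM in Pdx1 gRNA livers, 0.0746, 1.41, 0.0827 and 2.83 CPM in control gRNA livers, and 147, 0.190, 0.307 and 99.1 CPM in PBS livers. Both low PBS values are libraries 2 and 3, with 2 and 3 counts, so that PBS livers held the highest values and some of the lowest. It fell by 5.91 ± 1.98 in control gRNA against PBS livers (edgeR adjusted p = 0.0410), a call that held in 4 of the 12 fits that left out 1 library. In those fits the log2 fold change ran from -7.01 without control gRNA library 4 to -5.02 without PBS library 1, where the adjusted p was 0.0739. Without PBS libraries 2 and 3 it fell by 6.93 ± 1.4 (adjusted p = 0.0152). In Pdx1 gRNA livers the log2 fold change was -2.96 ± 1.67 against all PBS livers and -3.98 ± 1.22 without libraries 2 and 3 (adjusted p = 0.226 and 0.0695). Its neighbour Sult3a2 had 3, 2, 20 and 0 counts in Pdx1 gRNA libraries, 0, 3, 0 and 2 counts in control gRNA libraries, and 58, 0, 0 and 78 counts in PBS libraries. It was too low for the test over all 12 libraries, and without PBS libraries 2 and 3 it fell in control gRNA livers (log2 -6.13 ± 1.21, adjusted p = 0.0132).

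In the Sult1 family the changes were small. Sult1b1, a thyroid hormone sulfotransferase, had 8.89 to 18.0 CPM in Pdx1 gRNA livers, 7.69 to 15.7 CPM in control gRNA livers and 12.6 to 27.8 CPM in PBS livers, and fell by 0.91 ± 0.30 in control gRNA against PBS livers (edgeR adjusted p = 0.0334). The call held in 7 of the 12 fits without 1 library, and without PBS libraries 2 and 3 the adjusted p was 0.202. Sult1d1, which sulfates catecholamines and other phenols in mouse, had 107, 73.2, 113 and 50.2 CPM in Pdx1 gRNA livers, 85.1, 99.6, 87.1 and 106 CPM in control gRNA livers, and 141, 110, 135 and 177 CPM in PBS livers. All 4 control gRNA libraries were below all PBS libraries, while 1 Pdx1 gRNA library lay above the lowest PBS library. It fell by 0.71 ± 0.23 in Pdx1 gRNA against PBS livers (adjusted p = 0.0449), and the log2 fold change was -0.57 ± 0.23 in control gRNA against PBS livers (adjusted p = 0.0756). The first call held in 5 of the 12 fits that left out 1 library, and without PBS libraries 2 and 3 the adjusted p was 0.0629. Sult1a1 had 410, 285, 574 and 226 CPM in Pdx1 gRNA livers, 297, 505, 320 and 426 CPM in control gRNA livers, and 354, 183, 277 and 525 CPM in PBS livers, and the 3 groups overlapped throughout. Its log2 fold change was 0.21 ± 0.34 in control gRNA and 0.16 ± 0.34 in Pdx1 gRNA against PBS livers, and it was negative in both without PBS libraries 2 and 3 (-0.21 and -0.25).

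Some genes were split within the PBS livers. For 8 of the 38 genes PBS libraries 2 and 3 lay apart from PBS libraries 1 and 4 by at least 4-fold, which is given as a description with no test. The share of all genes split in this way was not counted, so the 8 do not set the transferases apart. Ugt2b38 was higher in libraries 2 and 3, with 194 and 22 counts against 0 and 3 counts in libraries 1 and 4, and had 15 counts in all Pdx1 gRNA and 6 in all control gRNA libraries together. Sult2a1, Sult2a2, Sult2a3, Sult2a5, Sult2b1, Sult3a1 and Sult3a2 were lower in libraries 2 and 3. Of these, Sult2a3 and Sult2b1 had only 6 and 2 counts in libraries 1 and 4 together, against 0 in libraries 2 and 3, too few to show a fold. The Sult2a genes encode hydroxysteroid sulfotransferases that act on DHEA and bile acids. Sult2a2 had 1 and 2 counts in libraries 2 and 3, against 382 and 731 counts in libraries 1 and 4. Sult2a1 had 1 and 3 counts, against 887 and 137 counts. In the virus livers both were present in every library, Sult2a2 with 15.2, 51.1, 104 and 44.6 CPM in Pdx1 gRNA and 43.2, 180, 71.9 and 98.1 CPM in control gRNA livers, against 22.9 and 52.3 CPM in PBS libraries 1 and 4. Sult2a1 had 1.71, 14.2, 94.2 and 38.2 CPM in Pdx1 gRNA and 41.4, 121, 53.0 and 37.6 CPM in control gRNA livers, against 53.2 and 9.80 CPM in PBS libraries 1 and 4. Sult2a5 had 1.61 to 17.7 CPM in Pdx1 gRNA livers, 3.82 to 10.2 CPM in control gRNA livers, and 9.05 and 1.72 CPM in PBS libraries 1 and 4, against 1 and 0 counts in PBS libraries 2 and 3. None of these 3 was called against PBS livers, with or without libraries 2 and 3. Sult2a8, the Sult2 gene with the highest counts, ran opposite to Sult2a1, Sult2a2 and Sult2a5 within PBS livers. It had 970 and 880 CPM in libraries 2 and 3 against 234 and 327 CPM in libraries 1 and 4. The split followed other genes with a known sex difference in mouse liver. A list of 7 male-biased genes summed to 6532 and 4025 CPM in PBS libraries 2 and 3, against 275 and 185 CPM in PBS libraries 1 and 4. It summed to 49.9 to 359 CPM in Pdx1 gRNA livers and 105 to 164 CPM in control gRNA livers. Of its 7 genes 6 fell in control gRNA and 5 in Pdx1 gRNA against PBS livers, and 0 in either without PBS libraries 2 and 3. A list of 7 female-biased genes summed to 12.9 and 63.2 CPM in PBS libraries 2 and 3, and to 1209 and 5117 CPM in PBS libraries 1 and 4. It summed to 516 to 1908 CPM in Pdx1 gRNA livers and 336 to 953 CPM in control gRNA livers. Against PBS livers 0 of these 7 were called, and without PBS libraries 2 and 3 only 1 fell, in control gRNA livers.

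**Figure D5:**
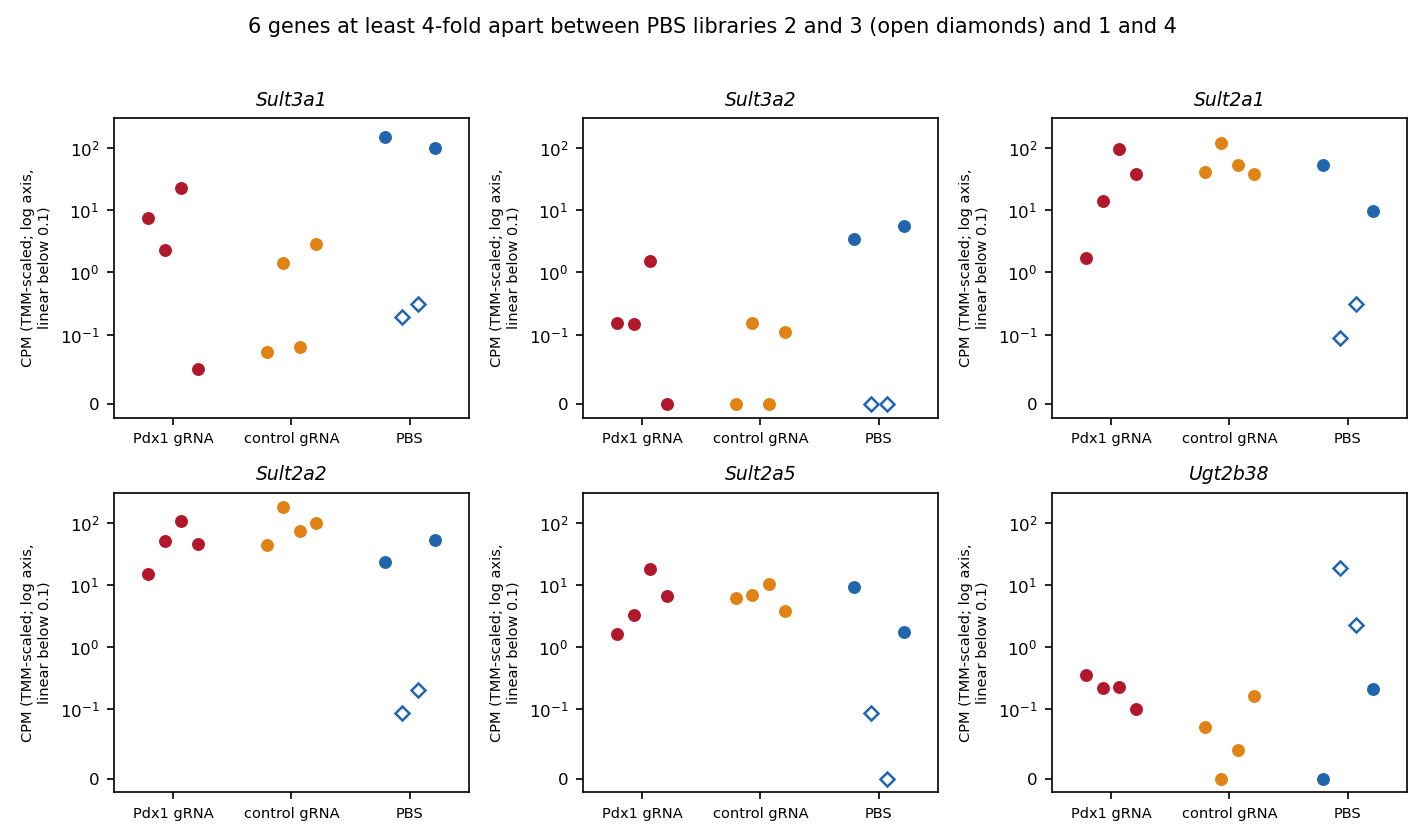
TMM-scaled CPM (vertical axes, logarithmic above 0.1 and linear below) of 6 of the 8 genes that separated PBS libraries 2 and 3 (open diamonds) from PBS libraries 1 and 4, in all 12 libraries, with Pdx1 gRNA, control gRNA and PBS livers from left to right. The diamonds lie at or near 0 for Sult2a1, Sult2a2 and Sult2a5, where all virus libraries have counts; for Sult3a1 the diamonds lie at 0.190 and 0.307 CPM, and the virus libraries run from 0.0508 to 22.4 CPM.

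Between the 2 virus groups no transferase gene was called. Of all genes tested in Pdx1 gRNA livers against control gRNA livers 0 were called (0% of 15219), and 0 of the 25 had even an unadjusted p under 0.05 in edgeR's test, whose smallest p values were those of Ugt1a1, Sult3a1 and Ugt2a3. DESeq2 and limma-voom called 0 of them as well. In the fit without PBS libraries 2 and 3 the number with an unadjusted p under 0.05 was 2 of 29 (Sult3a1 at 0.0357 and Sult2a3 at 0.0494), and 0 were called. Over all 12 libraries the log2 fold changes were 0.55 ± 0.34 for Ugt1a1, 2.95 ± 1.84 for Sult3a1 and 0.55 ± 0.37 for Ugt2a3. The edgeR adjusted p values of these genes were 0.846, 0.846 and 0.851. The SE leave room for differences of these sizes, so a lack of calls does not show that the groups had equal levels. The targeted gene Pdx1, above the count filter in every Pdx1 gRNA library, was itself among the genes not called. Levels varied between libraries of the same group. Among the 8 virus libraries, control gRNA library 1 was lowest for 11 of the 25 genes, and Pdx1 gRNA library 3 was highest for 14. Of these 8, control gRNA library 1 also had the largest TMM factor (1.22) and Pdx1 gRNA library 3 the smallest (0.935). The share of all genes lowest or highest in these libraries was not counted.

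The other 13 of the 38 genes were not tested over all 12 libraries. Ugt2a1, Ugt2a2 and Sult1c1 had no count in any library, and for the first 2 nearly all exon bases are shared, so that their counting is limited. Another 10 had 21 to 240 counts summed over the 12 libraries, below the filter. Besides Ugt2b38, Sult2a3, Sult2b1 and Sult3a2 above, these were Ugt1a2, Ugt1a8, Ugt1a10, Sult1e1, Sult2a4 and Sult4a1. Sult1e1, the estrogen sulfotransferase, had 27 counts in all, and Sult4a1, known from brain, had 98. The tested genes not described so far, Ugt2b37, Sult1c2, Sult2a6, Sult2a7 and Sult5a1, were not called in any comparison, with or without PBS libraries 2 and 3.

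The counts in the lists that follow stand against the shares over all genes. In control gRNA against PBS livers 16.3% of all genes tested were called higher and 15.8% lower, and in Pdx1 gRNA against PBS livers 11.7% and 10.4%. Without PBS libraries 2 and 3 these shares were 6.91 and 7.05% in control gRNA livers and 4.5 and 3.4% in Pdx1 gRNA livers. With 5 to 20 genes a list, a few calls are near those shares.

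Some genes that supply the cofactor of glucuronidation rose. Of 9 genes for UDP-glucuronic acid supply 4 rose and 0 fell in control gRNA against PBS livers, and 4 rose in Pdx1 gRNA against PBS livers; without PBS libraries 2 and 3 the numbers were 3 and 2. Ugdh, which makes UDP-glucuronic acid from UDP-glucose, had 404, 413, 494 and 715 CPM in Pdx1 gRNA livers, 702, 559, 747 and 757 CPM in control gRNA livers, and 102, 257, 261 and 254 CPM in PBS livers. Every virus library was above every PBS library. It rose by 1.66 ± 0.29 in control gRNA and by 1.21 ± 0.29 in Pdx1 gRNA against PBS livers (edgeR adjusted p = 0.00183 and 0.0119). Slc35d1, which carries the cofactor into the endoplasmic reticulum, rose by 0.89 ± 0.21 and 0.83 ± 0.21 in the same comparisons (edgeR adjusted p = 0.00695 and 0.0139). The calls of both genes held without PBS libraries 2 and 3. Pgm2, a phosphoglucomutase gene, rose by 1.19 ± 0.22 and 1.06 ± 0.22, and in Pdx1 gRNA livers its adjusted p was 0.0597 without PBS libraries 2 and 3.

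For sulfation, 3 of 10 tested genes of PAPS supply and use fell and 0 rose in control gRNA against PBS livers, and likewise 3 and 0 in Pdx1 gRNA livers; without PBS libraries 2 and 3 only Papss2 was called, in control gRNA livers. Papss2, which makes PAPS, fell by 1.14 ± 0.29 in control gRNA and by 0.92 ± 0.29 in Pdx1 gRNA against PBS livers (edgeR adjusted p = 0.0113 and 0.0386). The second call held in 5 of the 12 fits without 1 library, and the adjusted p values were 0.0273 and 0.0626 without PBS libraries 2 and 3. Of 7 tested genes that reverse conjugation 4 fell and 0 rose in control gRNA livers and 2 fell and 0 rose in Pdx1 gRNA livers; without PBS libraries 2 and 3 it was 3 and 0 in control gRNA livers, and 0 fell and 1 rose (the arylsulfatase gene Arsa) in Pdx1 gRNA livers. Ces2a, a carboxylesterase gene, was 1 of the 4, and averaged 301 ± 92.7 CPM in Pdx1 gRNA livers, 213 ± 19.7 CPM in control gRNA livers and 540 ± 132 CPM in PBS livers (SD, n = 4 each).

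Of 10 genes that move conjugates and bile acids across the hepatocyte membrane 7 fell and 1 rose in control gRNA against PBS livers, and 6 fell and 1 rose in Pdx1 gRNA livers; without PBS libraries 2 and 3 the numbers were 3 and 1 in control gRNA and 0 and 1 in Pdx1 gRNA livers. The gene that rose was Abcc4, an exporter of sulfated and glucuronidated bile acids to the blood. It had 97.7, 121, 201 and 542 CPM in Pdx1 gRNA livers, 339, 111, 325 and 191 CPM in control gRNA livers, and 2.94, 2.95, 3.48 and 17.9 CPM in PBS livers. Every virus library was above every PBS library, and the log2 fold change was 5.13 ± 0.80 in each comparison (edgeR adjusted p = 0.00108 in control gRNA and 0.00163 in Pdx1 gRNA livers). It was 6.27 in each without PBS library 4, and 4.33 in Pdx1 gRNA livers without Pdx1 gRNA library 4. Slco1b2, an uptake carrier, fell by 2.05 ± 0.39 in control gRNA and by 1.86 ± 0.39 in Pdx1 gRNA against PBS livers (edgeR adjusted p = 0.00249 and 0.00619), and in Pdx1 gRNA livers the adjusted p was 0.0627 without PBS libraries 2 and 3.

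Of 20 regulators of these genes 11 fell and 0 rose in control gRNA against PBS livers and 3 fell in Pdx1 gRNA livers, where the 3 of 20 are near the share of all genes; without PBS libraries 2 and 3 the falls numbered 4 and 3. The lipid-sensing receptor gene Ppara had 41.5, 45.5, 52.8 and 27.6 CPM in Pdx1 gRNA livers, 23.7, 31.0, 23.0 and 33.9 CPM in control gRNA livers, and 101, 264, 214 and 146 CPM in PBS livers. The growth hormone receptor gene Ghr had 278, 286, 329 and 199 CPM, 187, 233, 181 and 235 CPM, and 455, 841, 748 and 633 CPM in the same order of groups. Every virus library was below every PBS library for both, and likewise for Stat5b, which carries the growth hormone signal. In control gRNA and Pdx1 gRNA against PBS livers the log2 fold changes were -2.70 ± 0.29 and -2.11 ± 0.29 for Ppara, -1.68 ± 0.22 and -1.29 ± 0.22 for Ghr, and -1.12 ± 0.19 and -1.10 ± 0.19 for Stat5b (edgeR, highest adjusted p 0.00212). All 6 calls held without PBS libraries 2 and 3. Among 5 genes of heme breakdown and synthesis, the source of bilirubin, 1 rose and 1 fell in control gRNA against PBS livers, and 1 rose and 0 fell in Pdx1 gRNA livers; without PBS libraries 2 and 3 none of the 5 was called. Hmox1, heme oxygenase, rose by 1.25 ± 0.33 in control gRNA livers and by 1.09 ± 0.33 in Pdx1 gRNA livers (edgeR adjusted p = 0.0127 and 0.0318), with adjusted p values of 0.117 and 0.190 without PBS libraries 2 and 3. Of 11 tested conjugating enzyme genes outside the rule 5 fell and 0 rose in control gRNA livers and 3 fell in Pdx1 gRNA livers; without PBS libraries 2 and 3 it was 1 and 0 of 12. The 1 left was Ugt3a1, which had the lowest p in control gRNA livers (log2 -4.80 ± 1.01, edgeR adjusted p = 0.00529, and 0.0304 without those libraries).

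Some cell markers were called in the same comparisons, though many of the lists had 1 call or none. In bulk tissue, fewer cells of a type and less RNA per cell cannot be told apart. Of 8 hepatocyte markers 6 fell and 0 rose in control gRNA against PBS livers and 2 fell in Pdx1 gRNA livers, and without PBS libraries 2 and 3 it was 1 and 0. Their sum ran from 50445 to 104858 CPM in Pdx1 gRNA livers, from 51773 to 71107 CPM in control gRNA livers and from 87181 to 124418 CPM in PBS livers. Of 5 tested cholangiocyte markers 3 rose in control gRNA livers and 0 in Pdx1 gRNA livers, with summed levels of 46.2 to 104 CPM in Pdx1 gRNA livers, 59.0 to 407 CPM in control gRNA livers and 24.4 to 70.0 CPM in PBS livers; without PBS libraries 2 and 3 none was called. Of 5 endothelial markers 2 fell in control gRNA and 3 in Pdx1 gRNA livers, and 1 and 2 without PBS libraries 2 and 3. Their sum was 64.6 to 123 CPM in Pdx1 gRNA livers, 77.7 to 151 CPM in control gRNA livers and 126 to 345 CPM in PBS livers. Of 5 markers of Kupffer cells and macrophages 1 rose, of 5 stellate cell markers 1 fell and of 5 T cell markers 1 rose in control gRNA livers, and 0 of these were called in Pdx1 gRNA livers. Without PBS libraries 2 and 3 those 3 lists had 0 calls in control gRNA livers, and 1 stellate cell marker and 1 neutrophil marker fell in Pdx1 gRNA livers. Intestine and kidney also express Ugt and Sult genes. The 5 enterocyte markers summed to 121 to 398 CPM in Pdx1 gRNA livers, 216 to 368 CPM in control gRNA livers and 84.5 to 164 CPM in PBS livers. Most of that was Apoa4 and Fabp2, which liver also expresses; Vil1 did not exceed 2.61 CPM, Lct 0.313 CPM and Sis 0.0755 CPM. Apoa4, an apolipoprotein gene, rose by 2.02 ± 0.42 in control gRNA and by 1.84 ± 0.42 in Pdx1 gRNA against PBS livers (edgeR adjusted p = 0.00404 and 0.00932, and 0.0552 and 0.0889 without PBS libraries 2 and 3), while Fabp2 was not called. The 4 kidney tubule markers summed to 0 to 1.14 CPM in Pdx1 gRNA livers, 0.0373 to 0.388 CPM in control gRNA livers and 0.501 to 2.66 CPM in PBS livers. Their 1 tested gene, Lrp2, fell in control gRNA livers (log2 -3.29 ± 1.03, adjusted p = 0.0273, and 0.286 without PBS libraries 2 and 3), and the other 3 did not exceed 0.143 CPM in any library. The part of all these marker shifts in the transferase results was not tested.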

How the data were processed

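Polyadenylated liver RNA was sequenced in 12 libraries. The deposited values are raw counts of fragments per gene, in 1 table for each library. Per the file headers, version 1.4.6-p4 of featureCounts counted read pairs with both ends mapped, ignoring strand, over the exons of GENCODE M13. Per the same headers, neither multi-mapping fragments nor fragments overlapping several genes were counted. The submitters' processing notes name STAR 2.4.1a, Trimmomatic 0.32, R 3.5.1, DESeq2 1.22.0 and Subread, with GRCm38 (mm10) as build; no authors' test table was used here. Symbols came by gene ID from GENCODE M21 (50376 of 50600 matched). No 2 libraries were copies (chi-square per degree of freedom 19.3 to 300 over 66 pairs).

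Counts were filtered with filterByExpr (minimum count 10), scaled by TMM and fitted for all 12 libraries and 3 groups with edgeR 4.0.16 (quasi-likelihood, robust, two-sided; R 4.3.3), with Benjamini-Hochberg adjustment over 15219 genes; the procedure was tested on simulated data. Other settings tried were upper-quartile factors, DESeq2 size factors, total counts, no filter, at least 1 CPM in 4 libraries, DESeq2 1.42.0, limma-voom (limma 3.58.1), only the 8 libraries compared, a replicate block, each library left out, and PBS libraries 2 and 3 left out or marked by a covariate. The members, gene lists and alternatives were chosen with earlier results of these data known. Named genes were the 4 highest per family (Ugt1a, Ugt2, Sult), called genes with the largest changes, the 3 smallest p between virus groups, the genes split within PBS, and from each list up to 3 genes by p; Sult1b1 and Ugt1a7c fall outside that rule and were chosen after their values were seen. Promoter windows are from RefSeq (GRCm38.p6).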

Additional observations from a re-analysis of the deposited data

Results flagged for a closer look

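In 66 groups of 4 libraries, over 22 named genes, 6 had a highest or lowest library farther from the rest than Dixon's 95% criterion allows. By chance that criterion flags about 1 group in 20 only for normally distributed values. Some of these genes were named by the same values and some groups held few counts, so the 6 cannot be set against that rate. Ugt1a5 stood out on both sides, with 20.3 CPM in control gRNA library 4 against at most 6.41 CPM in the other control gRNA libraries, and with 160 CPM in PBS library 4 against at most 34.5 CPM in the other PBS libraries. Ugt2a3 had its lowest PBS value, 194 CPM, in PBS library 1, where the other 3 had 348 to 378 CPM. Ugt2b38 reached 18.4 CPM in PBS library 2 and at most 2.25 CPM in the other PBS libraries. Sult2a3 had 0.358 CPM in PBS library 4, which is 5 counts, against 1, 0 and 0 counts in the others. Sult3a2 had 1.51 CPM in Pdx1 gRNA library 3, which is 20 counts, against 3, 2 and 0 counts in the others.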

How the results depend on the processing

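Over the alternatives, 1521 of 1771 gene results kept their direction and side of the threshold, 205 lost and 32 gained a call, and 13 changed sign. In control gRNA against PBS livers the 0 rises and 8 falls became 2 and 4 on total counts, 1 and 5 with no filter, 1 and 5 with limma-voom, 2 and 4 without PBS libraries 2 and 3, and 2 and 3 with a covariate for them. With DESeq2 they were 0 and 10, and with only the 8 libraries compared 0 and 6. Leaving out 1 library gave 0 to 2 rises and 5 to 12 falls. In Pdx1 gRNA against PBS livers the 0 rises and 3 falls became 1 and 1 on total counts, 0 and 1 with no filter, 0 and 6 with DESeq2, 0 and 1 with only the 8 libraries compared, 1 and 0 without PBS libraries 2 and 3, and 2 and 0 with the covariate. Leaving out 1 library gave 0 to 1 rises and 1 to 7 falls. In Pdx1 gRNA against control gRNA livers every one of these settings gave 0 calls. The replicate block left 5 falls in control gRNA and 2 in Pdx1 gRNA livers; deviations correlated above 0.1 in only 3 of 12 same-numbered pairs, and 2 of 12 libraries correlated best with their own number, so the numbers do not pair them.

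The 13 sign changes were in genes that were not called. Ugt1a9 turned to 0.00098 in control gRNA livers with the covariate, and to 0.28 without PBS libraries 2 and 3 and 0.31 with the covariate in Pdx1 gRNA livers. Ugt2b5 turned to 0.00996 with the covariate in control gRNA livers, and to 0.26 and 0.28 in Pdx1 gRNA livers. Ugt1a6a turned to 0.12 in Pdx1 gRNA livers without PBS library 1 and ran from -0.72 to 0.12 over the 12 fits without 1 library. Sult1a1 turned to -0.21 and -0.18 in control gRNA livers and to -0.25 and -0.23 in Pdx1 gRNA livers, without PBS libraries 2 and 3 and with the covariate, and to -0.04 and -0.12 in Pdx1 gRNA livers without PBS library 2 and without Pdx1 gRNA library 3, with a range of -0.12 to 0.47 over the 12 such fits. The cause was not tested.

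Without a scaling factor the median of all genes moved by 0.35 (log2) in control gRNA and 0.28 in Pdx1 gRNA against PBS livers, and by 0.10 with upper-quartile factors in control gRNA livers. Rises made up 50.9% of all calls in control gRNA livers as reported, 61.8% with upper-quartile factors and 80.6% on total counts, and 53.0, 58.7 and 81.3% in Pdx1 gRNA livers. Per-kilobase levels of all 9 Ugt1a genes depended on the length used. Counts of a few fragments limit the low genes, and 4 libraries a group limit all comparisons.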
